A study of Homo sapiens with 12 samples.

Results

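The BCL2 family decides whether a cell's mitochondria release the factors that start apoptosis, and 10 of its genes were followed here across 2 breast cancer cell lines with and without silencing of MUC1. The 10 genes were taken by name from the 57992 genes of the count table: the pro-survival genes BCL2, BCL2L1, MCL1 and BCL2A1, the effectors BAX and BAK1, and the BH3-only genes BBC3, PMAIP1, BCL2L11 and BID. RNA sequencing covered 4 groups of 3 libraries: BT-549 cells and SUM149 cells, each with a control hairpin (CshRNA) or with a short hairpin RNA that targets MUC1-C (MUC1shRNA), the transmembrane subunit of the mucin MUC1. Both are human lines of triple-negative breast cancer, a class without estrogen receptor, progesterone receptor or raised HER2, and hairpin expression was stable. The 2 lines were grown in different media, and only the BT-549 column names share a tag, whose meaning is not given. Line, medium and library set therefore cannot be told apart. Each arm holds 3 sets of cells, and nothing given says whether the sets came from separate introductions of the hairpin. Their p-values therefore measure only the spread between these samples, which may be technical. A single hairpin name is given per arm, so effects of MUC1 loss and of that hairpin cannot be told apart.

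Pro-survival members hold the effectors in check at the outer mitochondrial membrane. BH3-only members are sensors of stress that bind the pro-survival members, and some of them also activate the effectors directly. Freed or activated BAX and BAK1 form pores, cytochrome c leaves the mitochondria, and the apoptosome switches on the caspases. Much of this control acts on proteins, through degradation, cleavage and phosphorylation, which RNA levels do not record.

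Library totals ran from 16332364 to 21248768 counts in BT-549, from 19392422 to 24140623 in the SUM149 CshRNA arm and from 7931614 to 9623924 in the SUM149 MUC1shRNA arm. Levels are given as CPM, counts scaled to a common TMM-adjusted library total. MUC1 itself was at 51.9, 53.6 and 54.3 CPM in the BT-549 CshRNA libraries and at 3.60, 6.01 and 4.28 CPM under MUC1shRNA. In SUM149 it was at 16.3, 16.6 and 12.1 CPM under CshRNA and at 1.06, 0.334 and 0.481 CPM under MUC1shRNA, so in both lines every silenced library was far below every control, at log2 fold changes of -3.53 (SE 0.14) and -4.59 (SE 0.27). Among marker genes, EPCAM, KRT19 and CDH1 averaged 0.287, 0.314 and 0.890 CPM in the BT-549 controls and 401, 173 and 199.7 CPM in the SUM149 controls. The 6 leukocyte markers summed to at most 5.02 CPM in any library. The 5 fibroblast markers summed to between 2399 and 3179 CPM in BT-549, mostly from collagen genes. The 5 epithelial markers summed to between 318 and 368 CPM in the BT-549 controls and to between 792 and 1030 CPM under MUC1shRNA. This shift came from KRT8 (mean 44.5 to 282 CPM) and KRT18 (290 to 655 CPM). EPCAM, KRT19 and CDH1 averaged 0.0368, 0.627 and 1.37 CPM under MUC1shRNA. The part of this shift in the results below was not tested. Of the 4 endothelial markers, only PECAM1 was above 1 CPM, in SUM149, at 28.4 CPM in the controls and 9.71 CPM under MUC1shRNA. Libraries that stood apart from their replicates were BT-549 CshRNA 3, BT-549 MUC1shRNA 2 and SUM149 CshRNA 3. The last of these had 164 genes above 1 CPM that both of its replicates held at under 0.1 CPM, against 0 to 7 such genes in each other library.

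In BT-549, 3 of the 9 tested members rose under MUC1shRNA and 2 fell, where 16.8% of all 13200 tested genes rose, 16.5% fell and 33.3% did either. BCL2L1, MCL1 and BBC3 rose, and BAX and BID fell. Single libraries weighed on these counts: only 1 member rose without MUC1shRNA 1 (with 2716 genes called in place of 4398) or without MUC1shRNA 3, and only 1 fell without MUC1shRNA 3, CshRNA 1 or CshRNA 3. In SUM149, 3 rose and 4 fell, where 27.6% of all 14178 tested genes rose, 28.9% fell and 56.5% did either. Here BCL2L1, BAX and BCL2L11 rose, and MCL1, BAK1, BBC3 and PMAIP1 fell. A gene counts as risen or fallen at an adjusted p below 0.05 in edgeR's quasi-likelihood test over all tested genes of the line. The members' median log2 fold change was -0.09 in BT-549 and 0.07 in SUM149, beside -0.01 and -0.03 over all tested genes. The arms did not overlap for 5 members in BT-549, where 47% of tested genes did not, and for 7 in SUM149, where 62.5% did not. BCL2A1 had too few reads to be tested in either line. In bulk libraries, fewer cells that make a transcript and less of it per cell cannot be told apart.

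**Figure D1:**
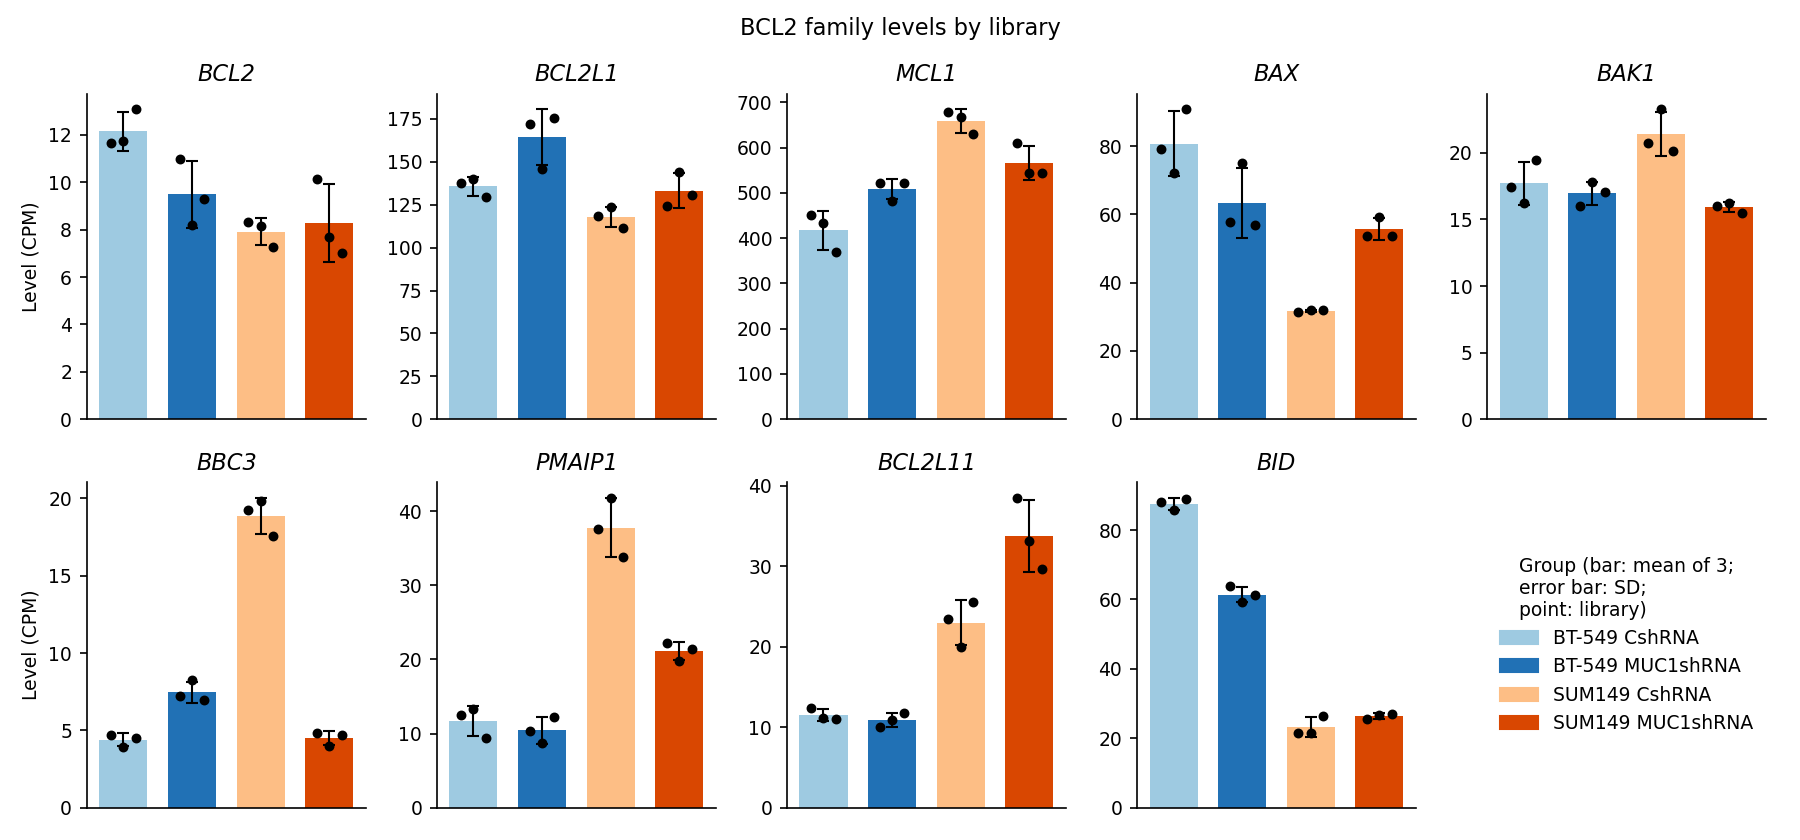
Level in CPM (vertical axis, from 0) of each of the 9 tested members in the 4 groups; bars are means of 3 libraries, error bars SD and points the libraries. BBC3 stands at 18.9 CPM in the SUM149 controls and near 4.5 CPM under MUC1shRNA, while in BT-549 it goes from 4.38 to 7.47 CPM.

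Among the pro-survival members, BCL2L1, the gene of BCL-XL, was the member that rose in both lines. In BT-549 it was at 138, 140.2 and 129 CPM under CshRNA and at 172, 146 and 176 CPM under MUC1shRNA. The 3 silenced libraries lay above the 3 controls, with MUC1shRNA 2 closest to them. The log2 fold change was 0.27 (SE 0.07, edgeR adjusted p = 0.018). In SUM149 BCL2L1 was at 118, 124 and 112 CPM under CshRNA and at 124, 144 and 131 CPM under MUC1shRNA, so the arms met at 124 CPM without crossing. The log2 fold change there was 0.19 (SE 0.07, edgeR adjusted p = 0.0444). Neither call was firm. In BT-549 the edgeR adjusted p was 0.0823 without MUC1shRNA 1, 0.0799 without MUC1shRNA 3 and 0.0541 without CshRNA 1. In SUM149 the call was lost in 7 of 14 alternatives, with an edgeR adjusted p of 0.139 under upper-quartile scaling, 0.0913 without CshRNA 1, 0.113 without CshRNA 3, 0.107 without MUC1shRNA 2 and 0.0769 without MUC1shRNA 3. On the opposite strand, the noncoding gene ABALON covers 43.0% of the exon bases of BCL2L1 (chr20:31664452-31723989, minus strand). Whether counting used the strand is not stated, and ABALON itself held 6 to 31 counts per library.

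MCL1 (chr1:150574551-150579738, minus strand), a short-lived pro-survival protein bound by NOXA, the product of PMAIP1, moved in opposite directions in the 2 lines. It was at 452, 433 and 369.7 CPM in the BT-549 controls and at 521, 482 and 523 CPM under MUC1shRNA. Every silenced library was above every control, and CshRNA 3, one of the libraries that stood apart, was the lowest. The rise was 0.28 on the log2 scale (SE 0.07, edgeR adjusted p = 0.0167), and 0.24 without BT-549 CshRNA 3 and MUC1shRNA 2. In SUM149, MCL1 was at 679, 669 and 629 CPM under CshRNA and at 611, 544 and 544 CPM under MUC1shRNA. The arms were again apart, now with the silenced libraries lower, at -0.21 as log2 fold change, with SE 0.07 (edgeR adjusted p = 0.0176). The edgeR adjusted p rose to 0.0692 without BT-549 MUC1shRNA 1, to 0.0643 without BT-549 MUC1shRNA 3, and in SUM149 to at most 0.111, without MUC1shRNA 3. Leaving out SUM149 CshRNA 1, CshRNA 2 or MUC1shRNA 2 also ended the SUM149 call, at 0.0547, 0.0549 and 0.0928.

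BCL2 (chr18:63123346-63320128, minus strand), the founding member of the family, was low in both lines. In BT-549 it was at 11.6, 11.7 and 13.1 CPM under CshRNA and at 11.0, 8.19 and 9.29 CPM under MUC1shRNA. The arms did not overlap, but the log2 fold change of -0.36 (SE 0.13, 95% interval -0.64 to -0.08) had an edgeR adjusted p of 0.0521, which missed the threshold. It passed in 5 of 15 alternatives, with the lowest adjusted p of 0.0318 without MUC1shRNA 1, and was -0.19 (0.238) without both libraries that stood apart. In SUM149, BCL2 was at 8.31, 8.17 and 7.29 CPM under CshRNA and at 10.1, 7.68 and 7.03 CPM under MUC1shRNA. Those arms overlapped, and the log2 fold change was 0.07 (95% interval -0.27 to 0.41, edgeR adjusted p = 0.728). BCL2A1 (chr15:79960889-79971446, minus strand), a pro-survival gene best known from blood cells, had 1 count in BT-549 CshRNA 2, 1 in each SUM149 MUC1shRNA library and 0 in the other 8. A count of 0 allows up to 3 counts, which is 0.115 to 0.201 CPM in these libraries, for counting error only.

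Per length of exon, MCL1 was the most abundant member in all 4 groups. It stood at 95.6 ± 9.85 CPM per kb (SD, n = 3) in the BT-549 controls, followed by BCL2L1 at 41.0 ± 1.70, BAX at 31.2 ± 3.65, BID at 19.7 ± 0.396 and BAK1 at 8.002 ± 0.736. In the SUM149 controls MCL1 was at 151 ± 6.02 CPM per kb, followed by BCL2L1 at 35.6 ± 1.83, PMAIP1 at 16.9 ± 1.79, BAX at 12.3 ± 0.135 and BAK1 at 9.67 ± 0.754. BBC3 (5.93 ± 0.373) and BID (5.23 ± 0.648) came next there and lay within their spread of each other. BCL2 was the lowest tested member in every group, at 0.673 to 1.03 CPM per kb. The exon length used joins the exons of every annotated transcript, so a gene with long unused exons reads low on this scale. Of the summed level per kb of BCL2, BCL2L1, MCL1, BCL2A1 and BCL2L2, MCL1 made 66.0% ± 1.90 (SD, n = 3) in the BT-549 controls and 67.4% ± 0.593 under MUC1shRNA. In SUM149 its share was 75.5% ± 0.371 under CshRNA and 71.5% ± 2.52 under MUC1shRNA, and the 3 silenced libraries, between 69.2% and 74.2%, all lay below the controls. These shares come from the same counts as the fold changes and were not tested.

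**Figure D2:**
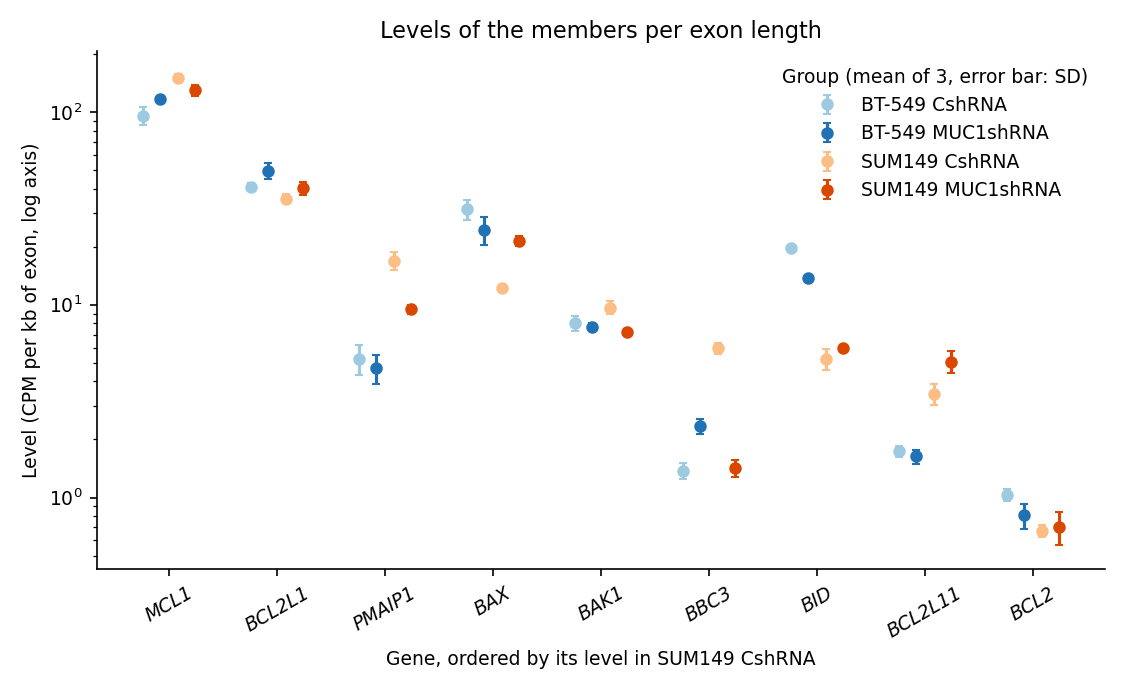
Level per kb of exon (vertical axis, CPM per kb, logarithmic) of the 9 tested members, ordered by their level in the SUM149 controls; points are means of 3 libraries and error bars SD. MCL1 leads in every group and BCL2 is last, and BAX, BID, BBC3 and PMAIP1 change their place between the 2 lines.

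BAX and BAK1, the pore-forming effectors, did not move together. BAX rose in SUM149 and fell in BT-549. It was at 31.4, 31.9 and 32.0 CPM in the SUM149 controls and at 53.7, 59.3 and 53.8 CPM under MUC1shRNA. The arms were far apart relative to their spread, and the rise was 1.77-fold, or 0.82 as log2 fold change, with SE 0.07 (edgeR adjusted p = 9.23e-07). In BT-549, BAX was at 79.2, 72.2 and 90.9 CPM under CshRNA and at 57.7, 75.1 and 57.0 CPM under MUC1shRNA. These arms overlapped, since MUC1shRNA 2 lay above CshRNA 2, and the log2 fold change was -0.36 (SE 0.12, edgeR adjusted p = 0.0409). This call was lost without any of 4 libraries: the edgeR adjusted p was 0.151 without MUC1shRNA 1, 0.145 without MUC1shRNA 3, 0.0919 without CshRNA 1 and 0.111 without CshRNA 3. With both libraries that stood apart removed, the edgeR adjusted p was 0.000136 and the log2 fold change -0.40. Those libraries were chosen after the data were seen, for deviating from their replicates, which narrows the spread within arms. The removal also takes out MUC1shRNA 2, the library behind the overlap. That fit is therefore no check on the call.

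The stretch before the BAX start is shown because BAX differed between the lines and under silencing, and because it is rich in one motif. The gene lies at chr19:48954815-48961798 on the plus strand. The stretch is chr19:48954625-48954814 of GRCh38.p14, plus strand, from RefSeq, and ends 61 bases before the RefSeq start, where the annotated exons begin. Capitals mark 2 E-box motifs (CACGTG, at -138 and -93 from the start), the first overlapped by a CRE half-site (TGACG, at -134).
BAX: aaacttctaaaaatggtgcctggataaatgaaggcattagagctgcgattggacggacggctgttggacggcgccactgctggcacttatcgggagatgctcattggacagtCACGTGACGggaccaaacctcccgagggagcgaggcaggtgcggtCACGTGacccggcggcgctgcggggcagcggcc
Further E-box motifs lie at -45 and -14, which makes 4 in the 250 bases before the start. Searched on both strands, at least 1 CACGTG stood in 6.345% of 35116 windows of that length, and 5 windows (0.0142%) held 4 or more. The limit of 4 is the count of BAX itself, whose window was picked for this motif, so the share describes the window and is no test. The BAX window has 25 CG dinucleotides, against a median of 11 over all windows, and the motif itself contains CG. These are matches of letters only.

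BAK1, the other effector (chr6:33572547-33580293, minus strand), was at 20.8, 23.3 and 20.1 CPM in the SUM149 controls and at 16.0, 16.2 and 15.5 CPM under MUC1shRNA. The silenced libraries were all lower, at -0.41 as log2 fold change, with SE 0.10 (edgeR adjusted p = 0.00309). In BT-549, BAK1 was at 17.4, 16.2 and 19.5 CPM under CshRNA and at 16.0, 17.8 and 17.0 CPM under MUC1shRNA, and the arms overlapped. The log2 fold change there was -0.07 (95% interval -0.28 to 0.14, edgeR adjusted p = 0.61). The ratio of BAX to BAK1, both per kb, was 1.29, 1.17 and 1.36 in the SUM149 controls and 2.87, 3.12 and 2.97 under MUC1shRNA. In BT-549 it was 3.89, 3.80 and 3.99 under CshRNA and 3.08, 3.61 and 2.86 under MUC1shRNA. The ratio was thus higher in each silenced SUM149 library than in any SUM149 control, and lower in each silenced BT-549 library than in any BT-549 control.

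**Figure D3:**
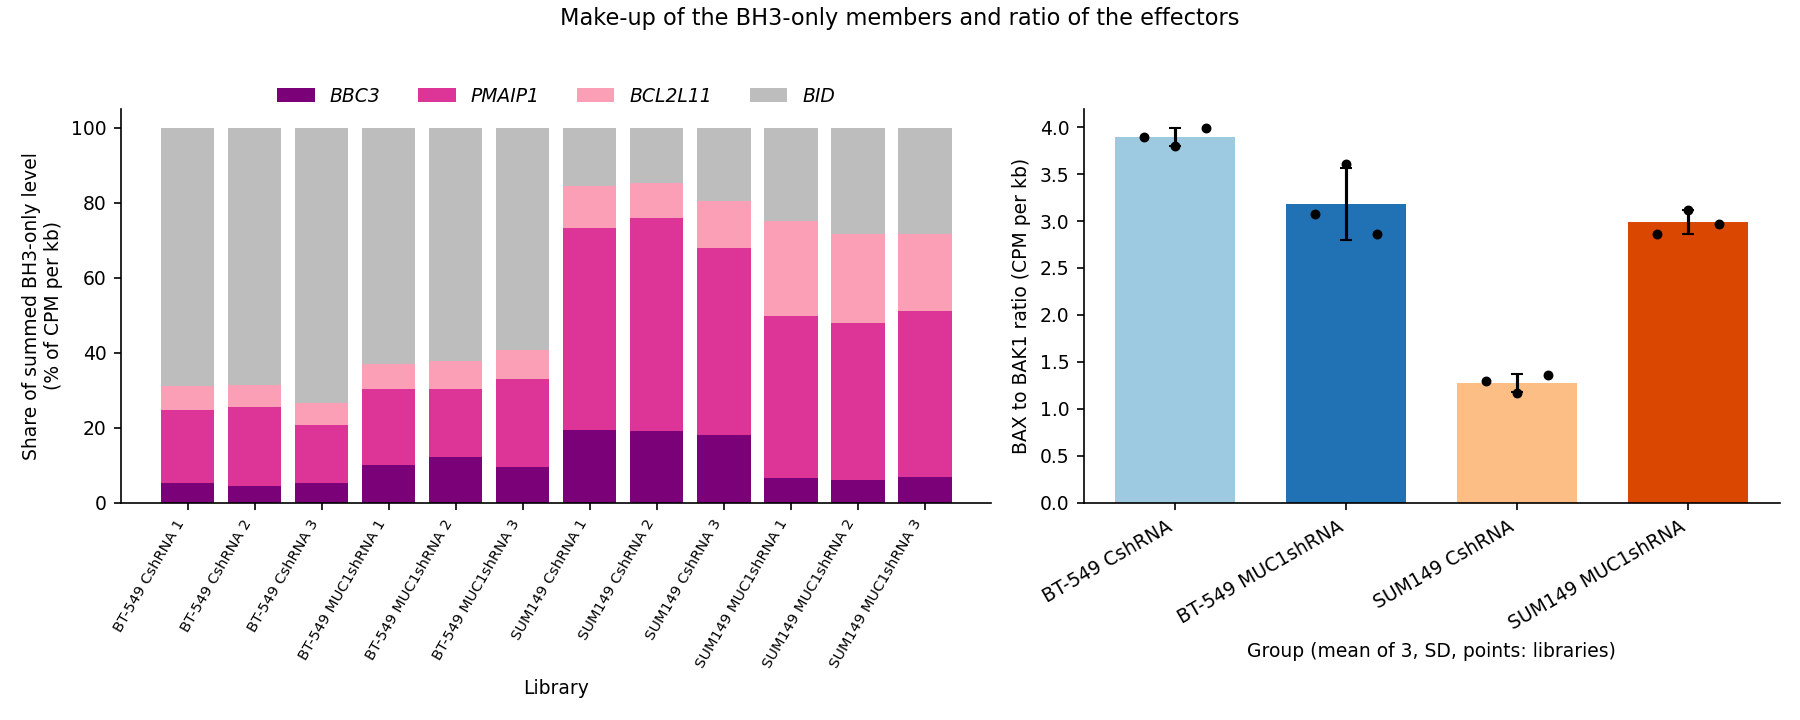
Left, share of each BH3-only member in their summed level (vertical axis, percent of CPM per kb) in the 12 libraries (horizontal axis). Right, ratio of BAX to BAK1 per kb in the 4 groups (bars: means of 3, error bars: SD, points: libraries): 3.90 and 3.18 in the BT-549 arms, 1.27 and 2.99 in the SUM149 arms.

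The 4 BH3-only members each followed their own course. BBC3, whose product PUMA binds all pro-survival members, showed the most extreme fold changes of the members in both lines, in opposite directions. In SUM149 it was at 19.2, 19.8 and 17.5 CPM under CshRNA and at 4.83, 4.01 and 4.72 CPM under MUC1shRNA. Every silenced library was below every control, at 0.242 times the control level, or -2.05 as log2 fold change, with SE 0.13 (edgeR adjusted p = 2.73e-08). In BT-549, BBC3 was at 4.70, 3.91 and 4.54 CPM under CshRNA and at 7.20, 8.25 and 6.95 CPM under MUC1shRNA, with the silenced libraries all higher. The rise was 1.69-fold, or 0.76 as log2 fold change, with SE 0.14 (edgeR adjusted p = 0.00245). Both calls held in every alternative run. The silenced SUM149 levels rest on 36 to 49 counts per library and the BT-549 control levels on 59 to 87.

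PMAIP1, which encodes NOXA, a BH3-only protein that binds MCL1, fell in SUM149. There it was at 37.6, 41.8 and 33.9 CPM under CshRNA and at 22.3, 19.8 and 21.4 CPM under MUC1shRNA. The arms did not overlap, and the level dropped to 0.565 times the control, or -0.82 as log2 fold change, with SE 0.10 (edgeR adjusted p = 1.3e-05). In BT-549, PMAIP1 was at 12.5, 13.3 and 9.39 CPM under CshRNA and at 10.3, 8.72 and 12.3 CPM under MUC1shRNA. Those arms overlapped, at a log2 fold change of -0.17 (95% interval -0.52 to 0.19, edgeR adjusted p = 0.448).

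The stretches before the starts of BBC3 and PMAIP1 are shown because both genes fell in SUM149 and both are known targets of stress-response factors. Each is from RefSeq on GRCh38.p14 and stops where the annotated exons begin. That of BBC3 is chr19:47232767-47232917, minus strand, ending 100 bases before the RefSeq start, and that of PMAIP1 is chr18:59899746-59899947, plus strand, ending 49 bases before it. Capitals mark an E-box (CACGTG, at -232) and an AP-1 site (TGANTCA, at -113) in BBC3, and a CRE half-site in PMAIP1 (TGACG, at -55, read on the other strand).
BBC3: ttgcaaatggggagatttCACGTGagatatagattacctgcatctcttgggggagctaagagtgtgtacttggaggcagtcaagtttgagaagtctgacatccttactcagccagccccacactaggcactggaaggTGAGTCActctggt
PMAIP1: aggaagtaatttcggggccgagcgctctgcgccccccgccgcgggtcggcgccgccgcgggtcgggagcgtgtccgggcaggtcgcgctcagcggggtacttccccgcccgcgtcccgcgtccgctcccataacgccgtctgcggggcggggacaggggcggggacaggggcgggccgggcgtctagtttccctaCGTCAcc
The CRE half-site stood in 21.218% of the 35116 windows and the AP-1 site in 6.573%, both strands searched. Among the other members, the CRE half-site also stood in BCL2 (-225), BAX (-134) and BCL2L1 (-201), and BAX and BCL2L1 rose in SUM149. In BCL2L1 it stood before the start at chr20:31723963 but not before that at chr20:31722868. An E-box also stood in BAX and BID. In BID the same E-box lay before the starts at chr22:17773983 and chr22:17774042, and the other BID starts had none. Whether a motif bears on these levels was not tested. Of the 10 members, 9 had a window, with 14 starts between them. BBC3 (chr19:47220822-47232766) and PMAIP1 (chr18:59899948-59904306) are given on GENCODE 29 positions of GRCh38, as are the other genes.

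BCL2L11, the gene of BIM, which binds all pro-survival members, rose in SUM149 while BBC3 and PMAIP1 fell. It was at 23.5, 19.98 and 25.5 CPM under CshRNA and at 38.5, 33.2 and 29.7 CPM under MUC1shRNA. The silenced libraries were all higher, at 0.56 as log2 fold change, with SE 0.11 (edgeR adjusted p = 0.000805). In BT-549 it was at 12.4, 11.2 and 11.0 CPM under CshRNA and at 9.98, 10.9 and 11.8 CPM under MUC1shRNA, with overlapping arms. The log2 fold change there was -0.09 (95% interval -0.33 to 0.14, edgeR adjusted p = 0.527). The noncoding gene MIR4435-2HG covers 10.9% of the exon bases of BCL2L11 (chr2:111119378-111168447, plus strand) on the other strand and held 137 to 444 counts per library. In SUM149 it had 324, 293 and 319 counts under CshRNA and 137, 170 and 206 under MUC1shRNA, where library totals were far lower. Relative to its library's total, it was thus higher in each silenced SUM149 library than in any control, as BCL2L11 was. Whether its reads add to the BCL2L11 rise was not tested. The BCL2L11 window held a FOXO site (GTAAACA) at -223, a motif found in 2.979% of windows.

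BID (chr22:17734138-17774770, minus strand), which is cleaved by caspase-8 and so links death receptors to the mitochondria, fell in BT-549. It was at 88.1, 85.7 and 89.0 CPM under CshRNA and at 63.8, 59.3 and 61.2 CPM under MUC1shRNA. The arms were wide apart, at 0.699 times the control level, or -0.52 as log2 fold change, with SE 0.06 (edgeR adjusted p = 0.000152), and the call held in every alternative run. In SUM149, BID was at 21.5, 21.6 and 26.6 CPM under CshRNA and at 25.5, 26.6 and 27.2 CPM under MUC1shRNA. Those arms overlapped through CshRNA 3, one of the libraries that stood apart, and the log2 fold change was 0.20 (95% interval -0.01 to 0.41, edgeR adjusted p = 0.101). Without that library it was 0.29, with an adjusted p of 0.0101.

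The make-up of the 4 BH3-only members, as shares of their summed level per kb, differed by line and arm. BID made 70.2% ± 2.68 (SD, n = 3) in the BT-549 controls and 61.5% ± 1.99 under MUC1shRNA, while BBC3 went from 4.91% ± 0.467 to 10.5% ± 1.41. In SUM149 PMAIP1 was the leading member, with 53.5% ± 3.68 under CshRNA and 43.2% ± 1.12 under MUC1shRNA. There BBC3 went from 18.8% ± 0.649 to 6.48% ± 0.458, BCL2L11 from 11.0% ± 1.74 to 23.1% ± 2.32, and BID from 16.6% ± 2.59 to 27.2% ± 1.98. For each of these changes within a line, the 3 silenced libraries lay wholly to one side of the 3 controls. Shares of one sum are tied to each other and were not tested.

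Between the 2 control arms, all 9 tested members differed, where 82.8% of 15155 tested genes did. BCL2, BCL2L1, BAX and BID were higher in BT-549, beside 39.5% of tested genes, and MCL1, BAK1, BBC3, PMAIP1 and BCL2L11 were lower, beside 43.3%. The groups did not overlap for any of the 9, as for 84.7% of tested genes. BID was 3.77-fold higher in BT-549 than in SUM149, a log2 difference of 1.91 (SE 0.09, edgeR adjusted p = 4.37e-08). BAX was 2.54-fold higher, a log2 difference of 1.35 (SE 0.09, edgeR adjusted p = 4.58e-07). Of the sensors that were lower, BBC3 had a log2 difference of -2.10 (SE 0.12), PMAIP1 of -1.69 (SE 0.14) and BCL2L11 of -0.99 (SE 0.11). BCL2 had 0.62 (SE 0.11) and MCL1 -0.66 (SE 0.08). The 2 smallest differences were less firm: BCL2L1, at 0.20, had an edgeR adjusted p of 0.0133 that reached 0.313 under upper-quartile scaling, and BAK1, at -0.27, had 0.0297 that reached 0.146 without BT-549 CshRNA 2. BAK1 also missed the threshold without BT-549 CshRNA 1 (0.117) or SUM149 CshRNA 2 (0.119).

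The responses of the 2 lines differed for 7 of the 9 members in a test of the difference itself, an interaction over all 12 libraries, where 39.6% of 15649 tested genes differed. The log2 fold change in BT-549 minus that in SUM149 was 2.82 for BBC3 (SE 0.18, edgeR adjusted p = 2.33e-08) and -1.16 for BAX (SE 0.15, edgeR adjusted p = 2.2e-05). It was -0.70 for BID (edgeR adjusted p = 2e-04), 0.50 for MCL1 (0.00129), 0.67 for PMAIP1 (0.0132), -0.64 for BCL2L11 (0.00663) and 0.36 for BAK1 (0.0425). Higher differences, 4 in all, stand beside 19.5% of tested genes and lower ones, 3 in all, beside 20.1%. The call for BAK1 was lost in 15 of 20 alternatives, with an edgeR adjusted p of up to 0.124, without BT-549 CshRNA 2. Leaving out any single library but BT-549 CshRNA 3 or SUM149 CshRNA 3 ended it, while the other 6 calls held in all 20. For BCL2L1 the difference was 0.10 (95% interval -0.13 to 0.33), and for BCL2 it was -0.41 (95% interval -0.85 to 0.03, edgeR adjusted p = 0.131). MUC1 itself had a difference of 1.08 (edgeR adjusted p = 0.059), which passed in 6 of 20 alternatives. Its mean level under MUC1shRNA was 4.63 CPM in BT-549 and 0.625 CPM in SUM149. Line and depth of silencing therefore cannot be told apart here. MCL1, BAX and BBC3 passed the test in each line in opposite directions, 33.3% of the members, where 9.93% of the 12125 genes tested in both lines did so. Single libraries decided this count. BBC3 alone did so without BT-549 MUC1shRNA 1 or without BT-549 MUC1shRNA 3, when 5.91% and 6.61% of genes did. Leaving out any other library gave 2 to 4 members, BBC3 always among them. BCL2L1 alone passed in the same direction in both, 11.1% of the members and 11.1% of genes. Its call was lost without BT-549 MUC1shRNA 1, MUC1shRNA 3 or CshRNA 1 and without SUM149 CshRNA 1, CshRNA 3, MUC1shRNA 2 or MUC1shRNA 3.

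**Figure D4:**
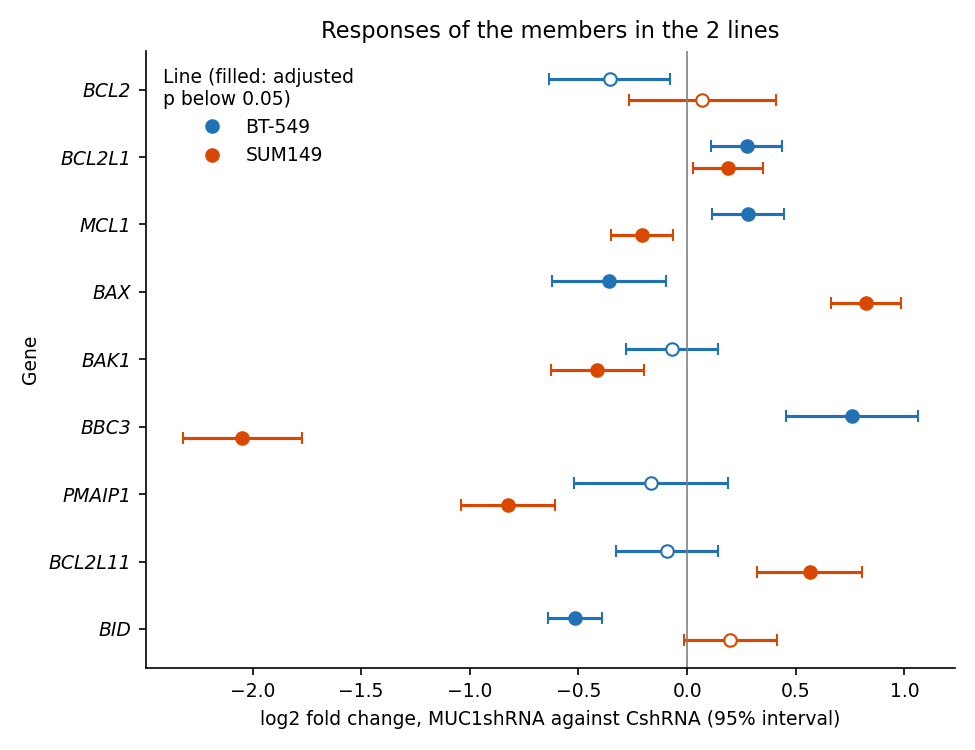
Log2 fold change of MUC1shRNA against CshRNA (horizontal axis) with its 95% interval for the 9 tested members in BT-549 and SUM149; filled points passed the test. BBC3 lies at 0.76 in BT-549 and -2.05 in SUM149, BAX at -0.36 and 0.82, and BCL2L1 on the same side in both.

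Of 13 further family genes, 8 were tested in BT-549, where 1 rose and 2 fell, and 10 in SUM149, where 5 rose and 3 fell. Of all tested genes, 16.8% rose and 16.5% fell in BT-549, and 27.6% and 28.9% did in SUM149. HRK, a BH3-only gene known from neurons, was at 33.7, 32.8 and 28.0 CPM in the SUM149 controls and at 8.01, 10.9 and 10.5 CPM under MUC1shRNA. It thus fell with BBC3 and PMAIP1, by 1.67 on the log2 scale (SE 0.13, edgeR adjusted p = 1.56e-07), and was at 0 to 0.261 CPM in BT-549. BMF, a BH3-only gene whose product binds the cytoskeleton, rose in SUM149 from 1.63 ± 0.300 CPM (SD, n = 3) to 6.48 ± 0.985 CPM, or 1.99 as log2 fold change, with SE 0.22 (edgeR adjusted p = 4.8e-06). BIK, also BH3-only, rose there from 4.19 ± 0.726 to 7.01 ± 0.575 CPM, and BAD by 0.40 on the log2 scale (edgeR adjusted p = 0.0239, but 0.0809, 0.0608 and 0.0926 without CshRNA 1, CshRNA 2 and MUC1shRNA 2). BCL2L12 rose in both lines, by 0.38 in BT-549 and 0.67 in SUM149. BCL2L13 fell in SUM149 by 0.64, and the pro-survival BCL2L2 by 0.25 (edgeR adjusted p = 0.0102, and 0.0702 without MUC1shRNA 3). BNIP3L, a mitophagy receptor, rose in SUM149 by 0.45. BOK, an effector-like member, fell in BT-549 by 0.49, and BNIP3, a mitophagy receptor too, by 0.44. Genes on the other strand cover 33.1% of the exon bases of BCL2L12 and 23.6% of those of BAD, and a gene on the same strand covers 19.4% of those of BCL2L2. BCL2L10, BCL2L14 and BCL2L15 averaged at most 0.263 CPM in any group.

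Among the 13 genes listed for the apoptosome and caspases, 12 were tested in each line. In SUM149, 7 rose and 1 fell, where 27.6% of all tested genes rose and 28.9% fell. APAF1, the scaffold of the apoptosome, rose there by 0.92 on the log2 scale (SE 0.11, edgeR adjusted p = 1.59e-05), and CYCS, cytochrome c, fell by 0.38. In BT-549, where 16.8% of all tested genes rose and 16.5% fell, 3 rose and 1 fell: CASP6 by 0.78, CASP9 by 0.52 and CASP8 by 0.36 upward, and ENDOG, a mitochondrial nuclease, at -0.79. The ENDOG call was lost without CshRNA 1, CshRNA 3, MUC1shRNA 1 or MUC1shRNA 3, at edgeR adjusted p of 0.0943, 0.094, 0.0804 and 0.0871, and SPOUT1 on the other strand covers 39.2% of the exon bases of ENDOG. Of 7 inhibitors of apoptosis, 5 were tested, and 4 rose in SUM149, again beside 27.6% of all tested genes, with BIRC3 from 23.3 ± 2.46 CPM (SD, n = 3) to 57.5 ± 6.85 CPM, a log2 fold change of 1.32 (edgeR adjusted p = 2.59e-07). BIRC2, which like BIRC3 ubiquitinates death receptor complexes, rose in both lines, by 0.68 in BT-549 and 0.35 in SUM149.

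Of 12 death receptor genes, 9 were tested in each line, with 2 risen and 3 fallen in BT-549 and 4 and 2 in SUM149. In BT-549 33.3% of all tested genes did either, and in SUM149 56.5% did, which is also the setting for the lists that follow: in SUM149, 6 of these 9 genes, 3 of 6 genes of MCL1 turnover and 6 of 10 channels and partners were called, near that share. TNFRSF10A, a TRAIL receptor, rose in both, from 1.04 to 2.91 CPM in BT-549 (edgeR adjusted p = 0.00258) and by 0.41 on the log2 scale in SUM149. TNFRSF10B, the other TRAIL receptor with a death domain, fell in BT-549 by 0.49, and RIPK1 rose in SUM149 by 0.84. Of 6 genes of MCL1 turnover, USP9X, its deubiquitinase, rose in BT-549 by 0.35, the only one of 5 tested. In SUM149 FBXW7 and BTRC, parts of ubiquitin ligases for MCL1, rose by 0.64 and 0.31 and MARCHF5 fell by 0.40, of 6 tested. The BTRC call was lost without MUC1shRNA 1 (edgeR adjusted p = 0.0551) or MUC1shRNA 3 (0.141). Among 10 VDAC channels and family partners, 3 rose and 1 fell in BT-549, and 5 rose and 1 fell in SUM149. BAG1, a BCL2-binding co-chaperone, fell in both, by 0.40 and 0.49, and TMBIM6, an inhibitor of BAX-induced death, rose in both, by 0.18 and 0.57. In BT-549 the TMBIM6 call was lost without MUC1shRNA 1 (edgeR adjusted p = 0.0523) or MUC1shRNA 3 (0.0654).

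**Figure D5:**
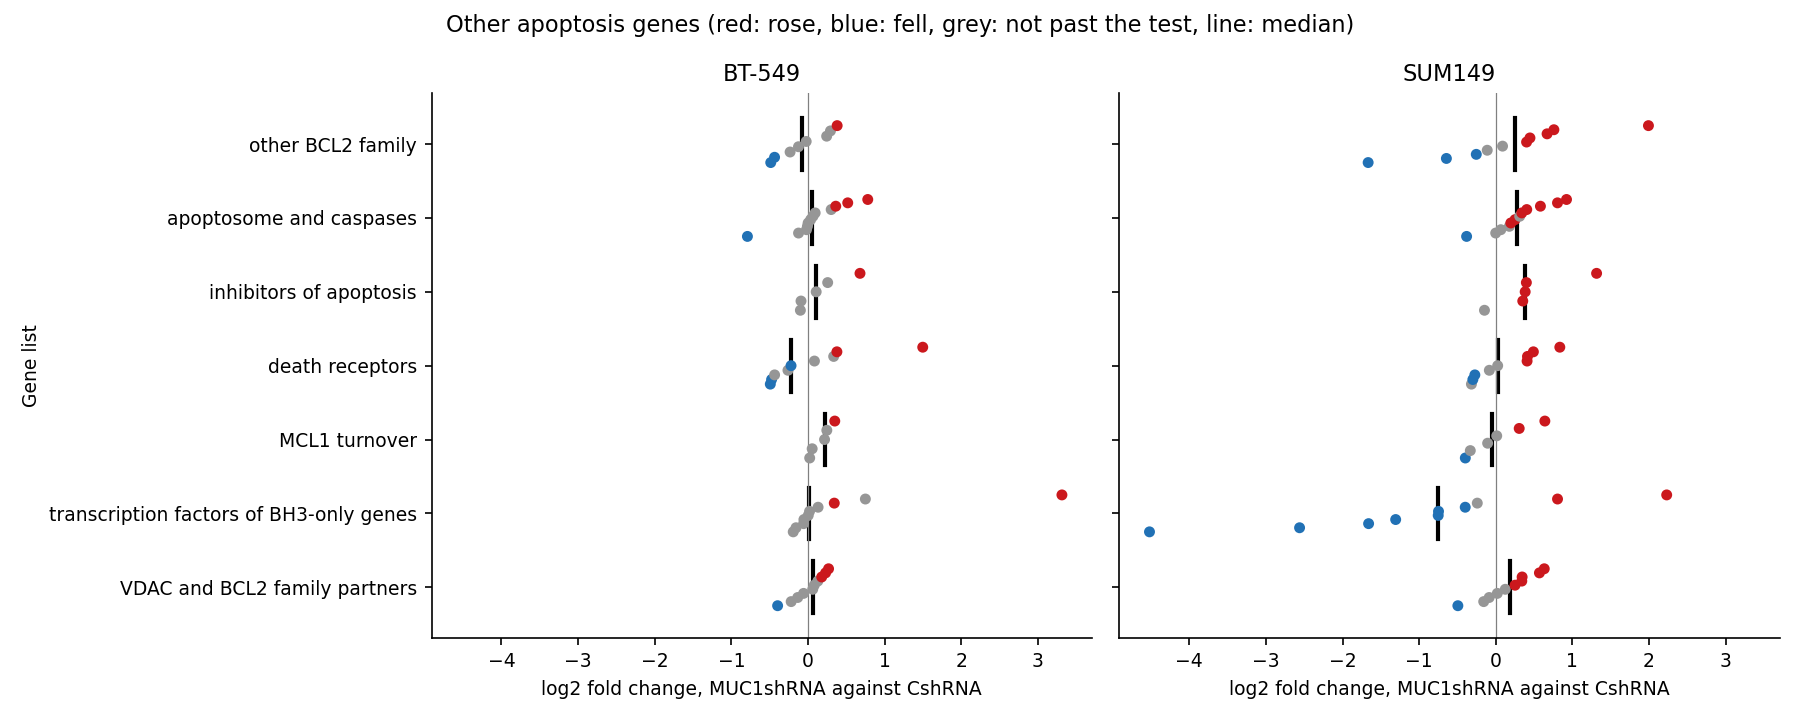
Log2 fold change of MUC1shRNA against CshRNA (horizontal axis) of the tested genes in 7 further lists (vertical axis), BT-549 left and SUM149 right; red points rose, blue fell, grey did not pass, and the black line is the list's median. The transcription factors have a median of 0.01 in BT-549 and -0.75 in SUM149.

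Of 11 transcription factors known to act on BH3-only genes, 10 were tested in each line: 2 rose and none fell in BT-549, and 2 rose and 7 fell in SUM149. Of all tested genes, 16.8% rose and 16.5% fell in BT-549, and 27.6% and 28.9% did in SUM149. Their median log2 fold change was 0.01 and -0.75, beside -0.01 and -0.03 over all tested genes. FOXO1, a forkhead factor known to act on BCL2L11 and BBC3, was at 2.01, 1.99 and 1.77 CPM in the BT-549 controls and at 19.9, 19.9 and 17.8 CPM under MUC1shRNA. That is 3.32 as log2 fold change, with SE 0.12 (edgeR adjusted p = 3.38e-07), while BBC3 rose and BCL2L11 was at -0.09. In SUM149, FOXO1 fell by 1.31 (edgeR adjusted p = 1.58e-08), from 223 ± 15.9 CPM (SD, n = 3) to 89.5 ± 6.02 CPM, while BBC3 fell and BCL2L11 rose. DDIT3, the stress factor CHOP, known to act on BBC3 and BCL2L11, fell in SUM149 by 2.56 (SE 0.14, edgeR adjusted p = 6.54e-09) and rose in BT-549 by 0.34 (edgeR adjusted p = 0.026). That rise was lost without CshRNA 1 (0.0939), MUC1shRNA 2 (0.0577) or MUC1shRNA 3 (0.0669), and genes on the other strand cover 31.6% of the exon bases of DDIT3. ATF4, known to act on PMAIP1 and DDIT3, fell in SUM149 from 436 ± 10.1 CPM (SD, n = 3) to 137 ± 7.42 CPM and was at 419 ± 9.98 and 426 ± 10.2 CPM in the BT-549 arms. TP63 fell in SUM149 by 4.52, and JUN, an AP-1 subunit, rose there by 2.23. The values of FOXO1 in SUM149 and of ATF4 in BT-549 lie outside the rule for naming genes and were chosen after they were seen. Whether any of these factors bears on a member was not tested.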

How the data were processed

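The authors deposited raw counts per Ensembl gene, with a column for each library. Without roles, the submitters' processing notes list GRCh38.p7, DESeq2 1.24.0, STAR 2.7.0 and CASAVA 1.8.2. The labels' protocols name a stranded mRNA kit. Not given in the sources used here are the tool that counted, whether it used the strand, and its gene annotation. The BT-549 controls are called vector in their columns and CshRNA in their titles. GENCODE 29 named 57388 of 57992 genes, and 45 Y copies were left out.

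edgeR 4.0.16 in R 4.3.3 (TMM, filterByExpr defaults, quasi-likelihood test, Benjamini-Hochberg adjustment over all tested genes) was fitted per line, over 12 libraries for the interaction and over the 6 control libraries for the lines. It was also run on simulated data with planted changes, whose outcome is not reported here. Those data held no libraries that stand apart, so the run does not vouch for the calls above. Replicates differed beyond sampling noise (chi-square per degree of freedom 1.85 to 14.5). Alternatives were other scalings and filters, DESeq2 1.42.0, limma-voom (limma 3.58.1), a replicate block, 1 fit of all libraries and leaving out libraries.

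Members and lists were chosen with earlier results of these data known. All members, MUC1 and the further family genes are named, and up to 4 genes per other list and line that passed with the smallest adjusted p, except that some of these are not reported here.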

Additional observations from a re-analysis of the deposited data

Results flagged for a closer look

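The response to MUC1shRNA differed between BT-549 and SUM149 for 7 members by edgeR's interaction test over 12 libraries, with 39.6% of all tested genes past the same threshold. The log2 fold change in BT-549 was higher than in SUM149 by 2.82 for BBC3, 0.67 for PMAIP1, 0.50 for MCL1 and 0.36 for BAK1. It was lower for BAX (-1.16), BID (-0.70) and BCL2L11 (-0.64). MUC1 itself had a difference of 1.08 (edgeR adjusted p = 0.059), so line and depth of silencing cannot be told apart. The BAK1 difference was lost in 15 of 20 alternatives, with an edgeR adjusted p of up to 0.124. BBC3, MCL1 and BAX passed in each line with opposite signs, but without BT-549 MUC1shRNA 1 or MUC1shRNA 3 only BBC3 did. BAX also lost its BT-549 call without CshRNA 1 (edgeR adjusted p = 0.0919) or CshRNA 3 (0.111) and with the replicate block (0.0993). MCL1 lost its SUM149 call without CshRNA 1, CshRNA 2, MUC1shRNA 2 or MUC1shRNA 3, at 0.0547 to 0.111. PMAIP1, BAK1 and BCL2L11 passed in SUM149 alone and BID in BT-549 alone.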

How the results depend on the processing

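Of 1450 values of single genes under an alternative, 1352 kept their direction and their side of the threshold, 74 lost it, 16 gained it and 8 changed sign. Of 189 counts, 182 stayed within 1.5 times the reported one. For small counts this is a loose limit, since a change from 3 to 2 members falls within it. In SUM149, members that rose ran from 2 to 3 and members that fell from 3 to 4, all within it. BBC3 in both lines, BID in BT-549, and BAX, BAK1, PMAIP1 and BCL2L11 in SUM149 kept their calls throughout. Leaving out 1 library at a time, BT-549 genes called ran from 2716 (without MUC1shRNA 1) to 4470, members that rose there from 1 to 3 and members that fell from 1 to 2. Without both BT-549 libraries that stand apart, an alternative chosen after seeing the data, 5325 genes were called in BT-549, with 3 members risen and 2 fallen.

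The replicate numbers gave no sign of pairing: same-numbered deviations correlated at 0.152, -0.365 and -0.309 in BT-549 and at -0.0594, 0.0632 and 0.0999 in SUM149. The highest correlation, 0.453, was between BT-549 CshRNA 3 and MUC1shRNA 2, both of which stood apart. Whether they share a factor was not tested. Deviations from the mean of 3 libraries are tied to each other. With the replicate block 2951 genes were called in BT-549, with 2 members risen and 1 fallen; the calls for BAX (edgeR adjusted p = 0.0993) and BCL2L1 (0.0598) there were lost.

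Sign changes concern values that did not pass the test. In BT-549, the log2 fold change was 0.0121 for BAD without both libraries that stand apart. Scalings moved the median of all genes by over 0.1 in the control arms (-0.20 under upper-quartile scaling), and no filter moved it to -0.20 in SUM149 and -0.30 between the control arms. Leaving out 1 library at a time, values ran in BT-549 from -0.1261 to 0.0109 for BAK1, from -0.0408 to 0.0013 for BAD and from -8e-04 to 0.0462 for ATF4, and in SUM149 from -0.0921 to 0.1894 for BCL2 and from -0.2491 to 0.1669 for BOK. The causes were not tested. Depth limits BCL2A1, the BBC3 levels under 100 counts and the BT-549 values of HRK and BIK, among others. MUC1 rests on 9, 3 and 5 counts in the silenced SUM149 libraries, which also bears on its difference between the lines. TP63 rests on 20, 22 and 23 counts there, and TNFRSF10A on 23, 18 and 12 in the BT-549 controls. BMF had 29 to 67 counts per library in SUM149, and ENDOG 26 to 74 in BT-549.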
